A study of Mus musculus with 4 samples.

Results

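The miR-29 family of mouse embryonic fibroblasts was followed through 4 small RNA libraries. Its members were taken by name as every listed microRNA called mmu-miR-29a, mmu-miR-29b or mmu-miR-29c, with or without a star, which gave 6 of 508 listed microRNAs. A microRNA is cut as a short duplex from a hairpin: the guide strand is the arm that is mostly kept, and the star marks the arm that is mostly discarded. All 4 libraries came from fibroblasts of strain shLuc.1309, named for a short hairpin RNA (shRNA) that targets luciferase, which is no mouse gene. The groups are shLuc.1309;ROSA-rtTA cells with doxycycline (dox), shLuc.1309;ROSA-rtTA cells without dox, shLuc.1309 cells with dox, and shLuc.1309 cells without dox. The reverse tetracycline transactivator rtTA binds tetracycline-responsive promoters and drives them once it has taken up dox, and ROSA names a locus that is active in most mouse tissues. The sources used here do not give the dose and duration of dox, the age of the embryos or the number of cultures behind a library. Each group holds 1 library, so no difference has a replicate check: the values compare libraries, not conditions, and no p-value was computed.

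The miR-29 family is known for holding down the extracellular matrix. Its guide strands pair through the seed, bases 2 to 8, with the transcripts of fibrillar collagens, elastin and fibrillin, and in fibroblasts of several organs transforming growth factor beta lowers the family while collagen is made. miR-29b differs from its relatives by a 3′ end that is known from human cells to direct nuclear import.

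The mature sequences are shown because the seed is what the guides share and the remaining bases are what tells them apart in a count. Capitals mark bases 2 to 8. All 6 deposited sequences matched a RefSeq mature sequence (GRCm38.p6) exactly, with U written for T:
miR-29a: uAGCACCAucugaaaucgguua
miR-29b: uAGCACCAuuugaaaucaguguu
miR-29c: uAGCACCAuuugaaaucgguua
miR-29a*: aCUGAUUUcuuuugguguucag
miR-29b*: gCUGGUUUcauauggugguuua
miR-29c*: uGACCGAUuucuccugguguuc
The 3 guides carry 1 seed, AGCACCA, and 0 other listed microRNAs carry it. The star arms have a seed each, shared with 0 other listed microRNAs. Counted from the 5′ end with the base of miR-29a first, miR-29a and miR-29c differ by 1 substitution, C10U. miR-29a and miR-29b differ by 4 of 22 compared bases, and miR-29b and miR-29c by 3. A read of miR-29a in which that C is misread as U matches miR-29c. The sources used here do not say how such reads were placed. The dox and rtTA ratios of miR-29a and miR-29c are therefore also given for their sum.

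The guides come from 4 hairpins in 2 pairs. They are shown because miR-29b is made in both pairs while each listed star sequence matches 1 hairpin. The guide is in capitals, and the sequences and coordinates are RefSeq's on GRCm38.p6:
Mir29b-1, chr6:31063023-31063093, minus strand: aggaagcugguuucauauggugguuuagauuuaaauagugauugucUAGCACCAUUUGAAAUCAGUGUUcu
Mir29a, chr6:31062660-31062747, minus strand: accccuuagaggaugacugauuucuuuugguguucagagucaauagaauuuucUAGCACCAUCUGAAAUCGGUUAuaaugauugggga
Mir29b-2, chr1:195037040-195037120, plus strand: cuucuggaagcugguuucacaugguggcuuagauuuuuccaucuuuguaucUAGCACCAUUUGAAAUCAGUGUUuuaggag
Mir29c, chr1:195037547-195037634, plus strand: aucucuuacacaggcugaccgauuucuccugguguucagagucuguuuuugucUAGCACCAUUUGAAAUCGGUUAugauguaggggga
On chromosome 6, 275 bases separate the hairpins, and Mir29b-1 overlaps an exon of the long noncoding gene Gm27019 on the same strand, while Mir29a overlaps no other annotated gene. On chromosome 1, 426 bases separate them. Both of these lie in exons of the noncoding transcript A330023F24Rik on the same strand and of Cd46, a complement regulator, on the opposite strand. The listed miR-29b* is the star of Mir29b-1. The nearest stretch of Mir29b-2 differs from it by 2 substitutions, U11C and U19C, counted from the 5′ end of miR-29b* with its base first, shown here in capitals: gcugguuucaCaugguggCuua. Counts of miR-29b therefore pool both hairpins, whereas the sequence of miR-29b* is that of Mir29b-1. Whether reads of the Mir29b-2 star were counted with it is not known, since the mismatches allowed are not given.

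The libraries held between 6378964 and 8774056 endogenous microRNA counts. Levels are given as CPM, the count per 1000000 endogenous counts of the library without the row of the luciferase shRNA, which itself took 2.38% of all counts in rtTA cells with dox and at most 0.0786% in each of the other libraries. All 6 members passed the floor on low counts (a mean of 3.14 CPM, met by 372 of the 508 microRNAs), with 82 to 400981 counts each. Fibroblast and mesenchymal marker microRNAs summed to between 427136 and 444856 CPM. Marker lists for muscle, nerve, blood, endothelium, epithelium, liver and pluripotent cells each summed to at most 712 CPM. Some of these sums differed across the libraries: muscle markers were at 592 CPM in rtTA cells with dox, 382 CPM in rtTA cells without dox, 246 CPM in dox-treated cells without rtTA and 262 CPM in untreated cells without rtTA. Neuronal markers ran from 486 to 712 CPM, endothelial markers from 120 to 175 CPM and blood markers from 52.5 to 82.2 CPM, with the blood sum lowest and the muscle and neuronal sums highest in rtTA cells with dox. The muscle sum was mostly miR-206 (mean 352 CPM). Its log2 ratio for dox in rtTA cells was 0.71, while miR-1 (-1.08) and miR-133a (-0.44) went the other way. Of the neuronal list miR-129-5p was at 0.62, miR-9 at 0.07, miR-124 at 0.04, miR-9* at -0.01 and miR-128 at -0.17. The part of these sums in the results on miR-29 was not tested. In RNA from whole cultures, fewer cells of a type and less RNA per cell cannot be told apart. Intervals are 95% intervals of counting error alone, since each group holds 1 library. They take each read as a separate molecule. PCR copies were not told from separate molecules, so the intervals may be too narrow.

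The family took between 7.11% and 10.2% of all endogenous microRNA counts, nearly all of it from 2 guides. miR-29b, the more abundant, stood at 37980 CPM in rtTA cells with dox, 45701 CPM in rtTA cells without dox, 55548 CPM in dox-treated cells without rtTA and 46958 CPM in untreated cells without rtTA. It was lowest in the induced library, and its rank among all microRNAs was 4 in each library. miR-29a stood at 32462 CPM in rtTA cells with dox, 44352 CPM in rtTA cells without dox, 44752 CPM in dox-treated cells without rtTA and 37100 CPM in untreated cells without rtTA. It was lowest in the induced library too, where it ranked 6, against 5 in each of the others. The levels in rtTA cells without dox and in dox-treated cells without rtTA lay within 1.01-fold of each other. miR-29c was far rarer, with 473 CPM in rtTA cells with dox, 822 CPM in rtTA cells without dox, 957 CPM in dox-treated cells without rtTA and 734 CPM in untreated cells without rtTA. Its order of libraries was that of miR-29a, and neighbours in that order were apart by more than counting error for each guide.

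Each star arm was rarer than its guide. miR-29a*, the other arm of Mir29a, held 1497 counts (199 CPM) in rtTA cells with dox, 1886 (215 CPM) in rtTA cells without dox, 3018 (461 CPM) in dox-treated cells without rtTA and 1185 (186 CPM) in untreated cells without rtTA. The dox-treated library without rtTA stood alone, 2.15-fold above the next (rtTA cells without dox), while the levels of rtTA cells with dox and untreated cells without rtTA were not apart beyond counting error. miR-29b* held 129 counts (17.2 CPM) in rtTA cells with dox, 240 (27.4 CPM) in rtTA cells without dox, 137 (20.9 CPM) in dox-treated cells without rtTA and 141 (22.1 CPM) in untreated cells without rtTA. Here rtTA cells without dox were highest and only just apart from the next library (log2 ratio 0.31, 0.0014 to 0.62), and the 3 remaining libraries followed with neighbours not apart. miR-29c* held 83 counts (11.1 CPM) in rtTA cells with dox, 104 (11.9 CPM) in rtTA cells without dox, 91 (13.9 CPM) in dox-treated cells without rtTA and 82 (12.9 CPM) in untreated cells without rtTA. No 2 neighbouring levels of miR-29c* were apart at this depth.

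**Figure D1:**
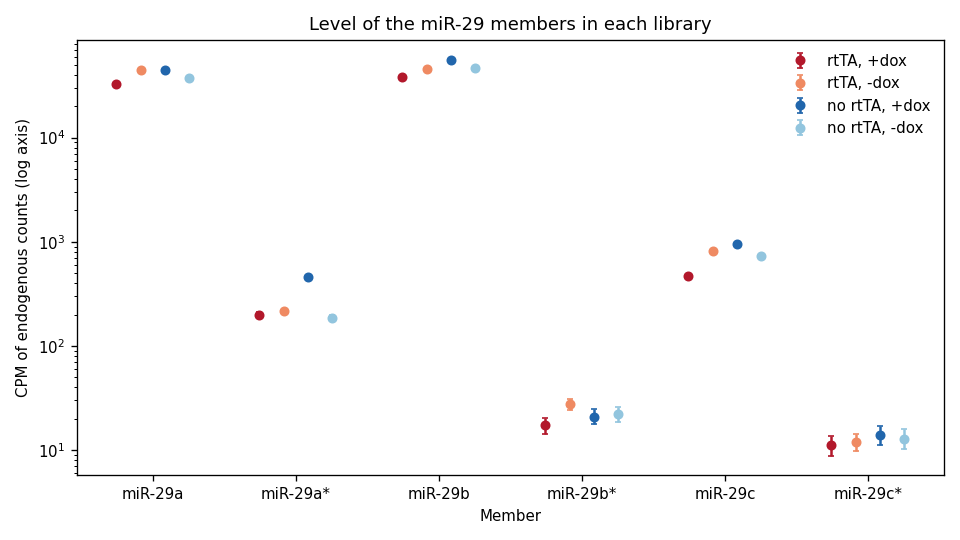
Level of each member in CPM of endogenous counts on a log axis, 1 point per library with its exact Poisson 95% interval of the count (often smaller than the point). For miR-29a, miR-29b and miR-29c the rtTA library with dox is the lowest of the 4, and for miR-29a* the dox-treated library without rtTA (461 CPM) stands above the others.

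Within the family, the guides were most evenly balanced in rtTA cells without dox, a comparison that does not depend on how libraries are scaled. miR-29b took 53.6% of the guide counts in rtTA cells with dox, 50.3% in rtTA cells without dox, 54.9% in dox-treated cells without rtTA and 55.4% in untreated cells without rtTA. In rtTA cells without dox the count of miR-29b was 1.030 times that of miR-29a (1.026 to 1.035), against 1.266 times (1.259 to 1.273) in untreated cells without rtTA. The log2 change of that ratio was -0.30 (-0.31 to -0.29) for rtTA over no rtTA without dox and -0.09 (-0.10 to -0.07) with dox. Dox went with 0.18 (0.17 to 0.19) in rtTA cells and -0.03 (-0.04 to -0.02) without rtTA. miR-29c took 0.667% of the guide counts in rtTA cells with dox, 0.905% in rtTA cells without dox, 0.945% in dox-treated cells without rtTA and 0.866% in untreated cells without rtTA. The induced library thus held 68.6 counts of miR-29a for each of miR-29c, and the others 46.8 to 54.0. The 95% interval of the induced library (66.4 to 70.9) lay above those of the other 3.

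With dox in rtTA cells, where the shRNA is switched on, all 6 members had a ratio below 0 and none was counted as changed. To be counted, a microRNA had to be 2-fold or more apart and its interval had to leave out equality, a rule that called 1.34% of the 372 microRNAs as higher and 8.6% as lower in this comparison. The guides together held 70916 CPM in rtTA cells with dox and 90874 CPM in rtTA cells without dox, a log2 ratio of -0.36 (-0.36 to -0.35). Single log2 ratios were -0.80 (-0.85 to -0.74) for miR-29c, -0.45 (-0.46 to -0.44) for miR-29a and -0.27 (-0.27 to -0.26) for miR-29b. miR-29a and miR-29c, which differ by 1 base and lie on different chromosomes, were thus 0.35 apart on the log2 scale (0.29 to 0.40). Taken as 1 feature, miR-29a and miR-29c were at -0.46 here, at 0.27 for dox without rtTA, at 0.26 for rtTA without dox and at -0.47 for rtTA with dox, each close to miR-29a, which supplies nearly all of the sum. Among the star arms miR-29b* was at -0.67 (-0.99 to -0.36), miR-29a* at -0.11 (-0.21 to -0.01) and miR-29c* at -0.10 (-0.53 to 0.33). The interval of miR-29c* spans equality, while that of its guide does not. The median over the 6 members was -0.36, against -0.06 over all 372, of which 53.8% were below 0. With a 1.5-fold rule, miR-29c and miR-29b* were counted as lower, where 17.7% of all microRNAs were.

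The ratios of this comparison moved with base composition, and the guides are poor in G. The percentage of G is 18.2% in miR-29a and miR-29c and 17.4% in miR-29b, below the median of 23.8% over the 372 microRNAs. It is 22.7% in miR-29a* and miR-29c* and 31.8% in miR-29b*. Over the 372 microRNAs, which share their libraries, Pearson's r of the ratio with the percentage of G was 0.72, and a straight line rose by 0.43 on the log2 scale for every 10 percentage points. That line gave -0.43 at the G content of the summed guides, so that their ratio minus the line was 0.071, on the other side of 0. The values minus the line were -0.04 for miR-29a, 0.18 for miR-29b, 0.11 for miR-29a* and 0.12 for miR-29c*. miR-29c stayed below the line by -0.39 and miR-29b* by -0.84. The lower level of the main guides in the induced library was therefore about that of other microRNAs with as little G. miR-29c and miR-29b*, on 3553 and 129 counts in that library, were lower than the line but within the range at their own G content. At 18.2% of G the log2 ratios ran from -1.56 to 0.33, and at 31.8% from -0.69 to 0.82. miR-29b* (-0.67) thus lay close to the lowest at its G content. Why ratios follow G was not tested.

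**Figure D2:**
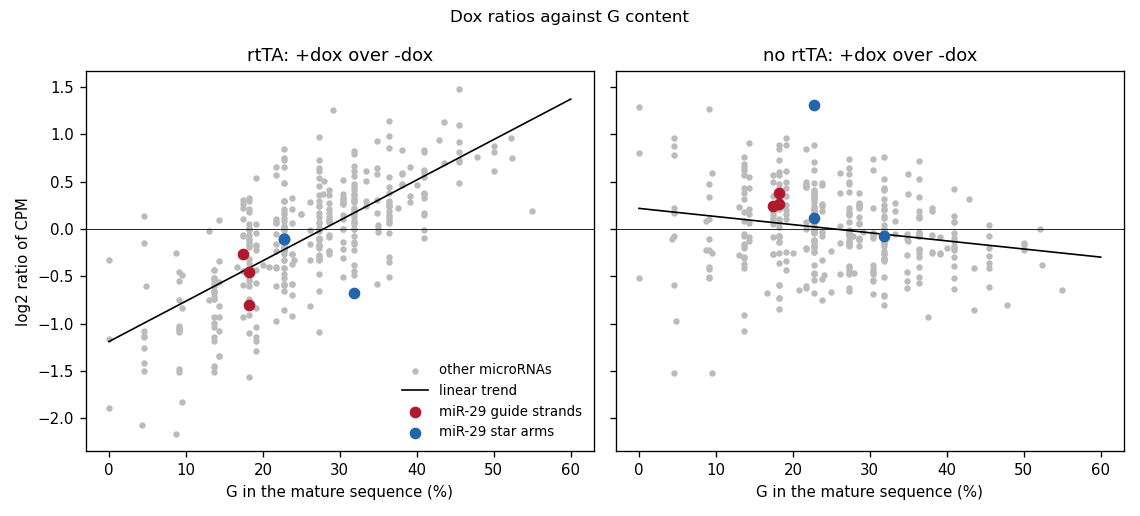
Log2 ratio of dox over no dox against the percentage of G in the mature sequence, for rtTA cells (left) and cells without rtTA (right), 1 point per microRNA past the floor, with the linear trend. In rtTA cells the guides lie at the low-G end, where the line is near -0.43, and miR-29b* lies far below it (the points of miR-29a* and miR-29c* coincide near -0.1); without rtTA, miR-29a* stands at 1.31.

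With dox in cells without rtTA, where the shRNA is not induced (0.0774% of all counts), the guides stood on the other side of 0. Together they held 101257 CPM in dox-treated cells and 84793 CPM in untreated cells, a log2 ratio of 0.26 (0.25 to 0.26). The ratios were 0.38 (0.33 to 0.44) for miR-29c, 0.27 (0.26 to 0.28) for miR-29a and 0.24 (0.24 to 0.25) for miR-29b, the largest of them a 1.30-fold difference. Of 19 microRNAs with a mean of at least 10000 CPM, miR-29a had the rank 2 from the highest ratio and miR-29b the rank 5, and let-7f had the highest (0.32). For dox in rtTA cells miR-29a ranked 17 and miR-29b 12 of the same 19. In cells without rtTA, over all 372 microRNAs, miR-29a ranked 89 and miR-29b 101. Here the line on G was nearly flat (r = -0.20), and the summed guides minus the line were at 0.19. miR-29a* was the 1 member counted as higher, at 461 CPM in dox-treated cells and 186 CPM in untreated cells (log2 ratio 1.31, 1.22 to 1.41), the highest ratio of all 372. The rule called 0.806% of microRNAs as higher and 0.806% as lower. The remaining star arms were at 0.11 (-0.33 to 0.56) for miR-29c* and -0.08 (-0.43 to 0.27) for miR-29b*, which comes from the hairpin beside Mir29a. The median over the 6 members was 0.26, against -0.04 over all 372.

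**Figure D3:**
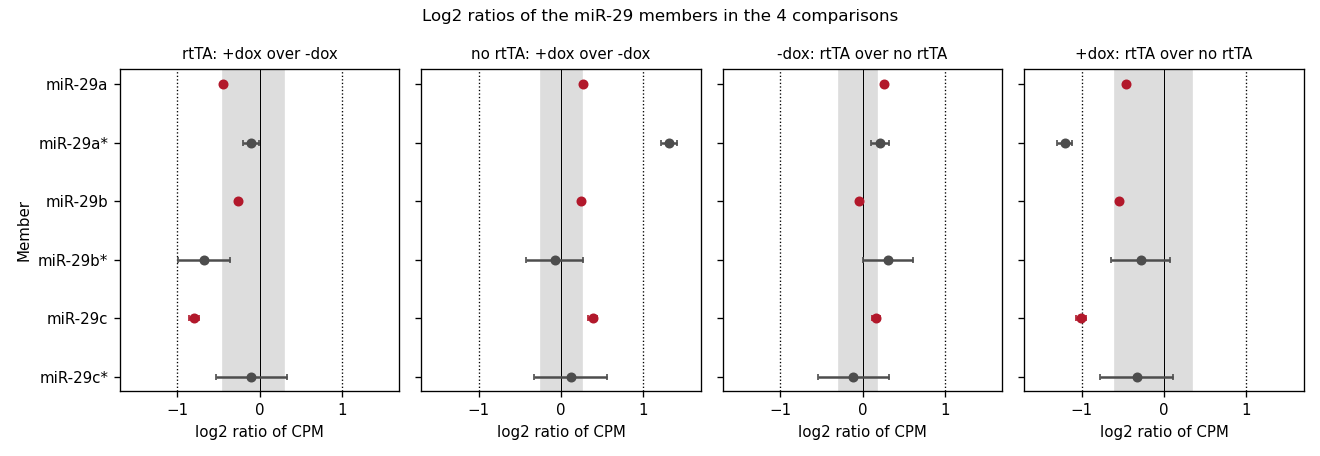
Log2 ratio of CPM of each member (guides in red, star arms in grey) with exact conditional binomial 95% intervals in the 4 comparisons, which share libraries; grey bands run between the quartiles of all 372 microRNAs and dotted lines mark 2-fold. All 6 members lie below 0 in both comparisons that put the induced library on top, and miR-29a* is past 2-fold in both comparisons that use the dox-treated library without rtTA.

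The dox ratio pointed opposite ways with and without rtTA for 5 of the 6 members, as it did for 57.3% of all microRNAs, and the pattern of lower with rtTA and higher without was that of those 5 members and of 28.5% of all. These comparisons share no library. The ratio with rtTA minus that without was -0.72 (-0.73 to -0.71) for miR-29a, -0.51 (-0.52 to -0.50) for miR-29b and -1.18 (-1.26 to -1.10) for miR-29c. For the star arms it was -1.42 (-1.56 to -1.28) for miR-29a*, -0.59 (-1.05 to -0.13) for miR-29b* and -0.21 (-0.81 to 0.38) for miR-29c*. The interval left out 0 for 5 of the 6 members, as it did for 75.5% of all 372 microRNAs. Past 2-fold were miR-29c and miR-29a*, in a direction in which 12.4% of all microRNAs were called. With the trend on G subtracted from both ratios, the difference was -0.25 for miR-29a, 0.0057 for miR-29b, -0.70 for miR-29c, -1.18 for miR-29a*, -0.82 for miR-29b* and 0.029 for miR-29c*.

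**Figure D4:**
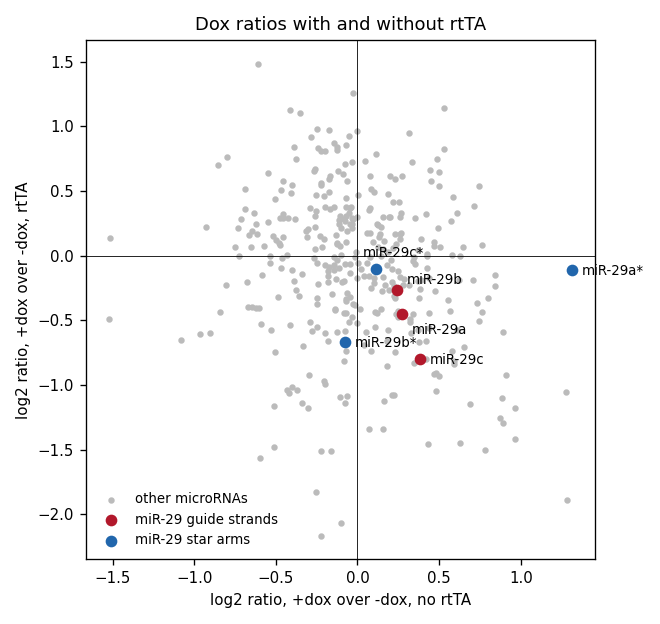
Log2 ratio of dox over no dox in rtTA cells (vertical) against the same in cells without rtTA (horizontal), 1 point per microRNA past the floor, with the miR-29 guides in red and their star arms in blue. The guides, miR-29a* and miR-29c* lie in the lower right field, which holds 28.5% of all microRNAs, and miR-29b* lies at the lower left.

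The genotypes without dox were the closest pair in their summed guides. The summed guides held 90874 CPM in rtTA cells and 84793 CPM in cells without rtTA, a log2 ratio of 0.10 (0.09 to 0.10). miR-29a was at 0.26 (0.25 to 0.26) and miR-29c at 0.16 (0.11 to 0.22), while miR-29b was at -0.04 (-0.05 to -0.03), a value that turns to 0.03 with DESeq2 size factors. The star arms were at 0.31 (0.0014 to 0.62) for miR-29b*, 0.21 (0.10 to 0.32) for miR-29a* and -0.12 (-0.55 to 0.32) for miR-29c*. None of the 6 was counted as changed, where the rule called 0.538% of microRNAs as higher and 1.34% as lower. The median over the members was 0.19 and over all microRNAs -0.07.

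The summed guides were farthest apart between rtTA cells and cells without rtTA under dox, in a comparison that shares its libraries with both dox comparisons. The summed guides held 70916 CPM in rtTA cells and 101257 CPM in cells without rtTA, a log2 ratio of -0.51 (-0.52 to -0.51). miR-29c, at -1.02 (-1.08 to -0.96), and miR-29a*, at -1.21 (-1.30 to -1.12), were counted as lower, where the rule called 14.2% of microRNAs as lower and 2.42% as higher. The call of miR-29c rests on the scaling: at -0.94 by TMM and -0.94 by DESeq2 size factors it missed 2-fold. miR-29b was at -0.55 (-0.56 to -0.54) and miR-29a at -0.46 (-0.47 to -0.46), and miR-29b* (-0.29, -0.64 to 0.07) and miR-29c* (-0.33, -0.78 to 0.11) spanned equality. Pearson's r with the percentage of G was 0.69 here, and minus that line the summed guides were at 0.054, miR-29c at -0.47 and miR-29a* at -0.90, with neither past 2-fold.

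The arms of each pair were compared by their share, which no scaling alters. miR-29a* made up 0.610% of the counts of both arms in rtTA cells with dox (95% Clopper-Pearson interval 0.580% to 0.642%), 0.482% (0.461% to 0.505%) in rtTA cells without dox, 1.02% (0.985% to 1.06%) in dox-treated cells without rtTA and 0.498% (0.470% to 0.527%) in untreated cells without rtTA. Its odds with dox in cells without rtTA were 2.06-fold those without dox (1.93 to 2.20), the rank 5 from the highest among 117 hairpins with enough counts of both arms, of which 3.42% were called higher. In rtTA cells the same odds ratio was 1.27 (1.18 to 1.36), and no miR-29 pair was called in that comparison, where 4.27% were called higher and 17.1% lower. Under dox its odds in rtTA cells were 0.60-fold those in cells without rtTA (0.56 to 0.63). That ratio was not called and had the rank 85 from the highest of the 117. So in the dox-treated cells without rtTA miR-29a* was higher against its own guide too, not merely against the library.

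miR-29b* made up 0.0452% of both arms in rtTA cells with dox (0.0378% to 0.0537%), 0.0598% (0.0525% to 0.0679%) in rtTA cells without dox, 0.0377% (0.0317% to 0.0446%) in dox-treated cells without rtTA and 0.0470% (0.0396% to 0.0555%) in untreated cells without rtTA. At most 3 of the 117 hairpins had a lower share of the rarer arm in any library, and the median over them ran from 5.19% to 6.29%. Since miR-29b pools 2 hairpins and the star was listed for 1, this share does not measure either hairpin alone. miR-29c* made up 2.28% of both arms in rtTA cells with dox (1.82% to 2.82%), 1.42% (1.16% to 1.72%) in rtTA cells without dox, 1.43% (1.16% to 1.76%) in dox-treated cells without rtTA and 1.72% (1.37% to 2.13%) in untreated cells without rtTA. Its odds with dox in rtTA cells were 1.62-fold those without dox (1.21 to 2.17), with the guide at -0.80 and the star at -0.10 on the log2 scale.

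**Figure D5:**
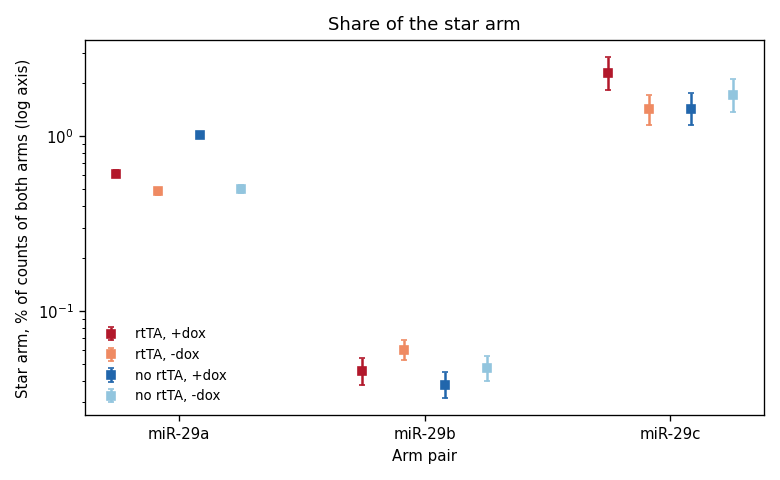
Share of the star arm in the counts of both arms (percent, log axis) for the 3 arm pairs, 1 point per library with its Clopper-Pearson 95% interval. miR-29c has the highest star share and miR-29b the lowest in each of the 4 libraries, and miR-29a* reaches 1.02% in dox-treated cells without rtTA.

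The microRNAs whose levels ran most like the summed guides were chosen by the distance of their log2 CPM, centred over the 4 libraries, among 91 with a mean of at least 1000 CPM. Centred on their own mean, the guides stood at -0.28 in rtTA cells with dox, 0.08 in rtTA cells without dox, 0.23 in dox-treated cells without rtTA and -0.02 in untreated cells without rtTA. The nearest were miR-27a (distance 0.12), miR-145 (0.14), miR-26a (0.15), miR-98 (0.16) and miR-27b (0.19). miR-27a, for example, stood at -0.28, -0.02, 0.25 and 0.05 in the same libraries. Of these, miR-27a and miR-27b are relatives of one another, miR-145 is a smooth muscle and fibroblast microRNA, and miR-98 belongs to the let-7 family. With a limit of 100 CPM, 2 of these 5 remained among the nearest 5 (miR-27a and miR-145). For miR-29a*, with a limit of 100 CPM, the nearest of 201 were miR-136* (0.45), miR-145* (0.53) and miR-376c (0.60), none of them close. These distances rest on 4 libraries and describe them only.

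Other microRNAs known for acting on matrix or transforming growth factor beta transcripts were listed by name, and 21 of 28 passed the floor. With dox in rtTA cells none of the 21 was counted as changed (median -0.13, 15 below 0). Of all 372, 1.34% were called higher and 8.6% lower there (median -0.06, 53.8% below 0). For dox without rtTA none of the 21 was either (median 0.12, 14 above 0). Of all 372, 0.806% were called each way there (median -0.04, 46.0% above 0). Without dox none differed between genotypes by the rule (median 0.06). Of all 372, 0.538% were called higher and 1.34% lower there (median -0.07). Under dox miR-30b (-1.13) and miR-26b (-1.19) were counted as lower with rtTA (median -0.14). These were 2 of 21 in a comparison where 14.2% of all microRNAs were lower. miR-21, abundant in fibroblasts, had dox ratios of -0.10 with rtTA and -0.11 without. miR-19b, which acts on connective tissue growth factor, had 0.11 and 0.09, and miR-30c, which acts on the same transcript, had -0.25 and 0.08.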

How the data were processed

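Small RNA from 4 mouse embryonic fibroblast samples was sequenced, 1 library per group, grouped by the titles in the labels. The authors deposited raw read counts, 1 whole number per microRNA and library, with 1 row for the luciferase shRNA. Per the labels' protocols, RNA was taken by Trizol and phenol-chloroform extraction. The sources used here do not give the aligner, the mismatches allowed, the treatment of shared reads, the microRNA database version or the genome build. If reads of miR-29a and miR-29c were split or counted for both, their balance is affected.

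CPM, log2 ratios with exact conditional binomial 95% intervals, shares with Clopper-Pearson intervals and odds ratios were computed from the counts with Python 3.11.15 and scipy 1.17.1. Depth was 6378964 to 8774056 endogenous counts, so that 1 count equals 0.114 to 0.157 CPM. The floor was a mean CPM equal to 20 counts in the shallowest library. Differences of dox ratios used 0.5 added to each count and a delta-method interval. Arms were paired by name where both summed to 20 counts or more in every library and neither was at 0. Alternatives were TMM factors (edgeR 4.0.16), DESeq2 1.42.0 size factors, other totals, other floors, a 1.5-fold rule and subtraction of the linear trend on G. The ratio, its interval and the call rule were tested on simulated counts with counting error alone, which leaves out variation between libraries. Named microRNAs are all members, the 5 nearest the summed guides, the 3 nearest miR-29a*, and miR-21, miR-30c and miR-19b of the matrix list. The microRNAs called in that list, let-7f and the single marker microRNAs were named after their values were seen. Members and lists were chosen with earlier results of these data known.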

Additional observations from a re-analysis of the deposited data

Results flagged for a closer look

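The dox ratio differed between cells with and without rtTA beyond counting error for 5 of the 6 members and for the summed guides, as it did for 75.5% of all 372 microRNAs. The log2 ratio with rtTA minus that without was -0.72 for miR-29a, -1.42 for miR-29a*, -0.51 for miR-29b, -0.59 for miR-29b*, -1.18 for miR-29c and -0.61 for the summed guides. With the linear trend on G subtracted from both ratios it was -0.25 for miR-29a, -1.18 for miR-29a*, 0.0057 for miR-29b, -0.82 for miR-29b* and -0.70 for miR-29c. The intervals cover counting error only, and with 1 library per group the differences were not tested against the spread between libraries.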

How the results depend on the processing

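No paired analysis was possible because each group has 1 library, and no library could be left out. The log2 ratio of the summed guides for dox in rtTA cells (-0.36) was -0.31 by TMM, -0.32 by DESeq2 size factors, -0.37 without the 10 most abundant microRNAs in the total, -0.39 with the shRNA in it, 0.071 after the G trend, -0.46 for miR-29a and miR-29c as 1 feature and -0.27 for miR-29b alone. In the same order of settings, dox without rtTA (0.26) gave 0.25, 0.28, 0.27, a value within its interval with the shRNA, 0.19, 0.27 and 0.24. rtTA without dox (0.10) gave 0.12, 0.17, 0.13, a value within its interval, 0.17, 0.26 and -0.039. rtTA with dox (-0.51) gave -0.43, -0.43, -0.51, -0.55, 0.054, -0.47 and -0.55.

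The median over the members for dox in rtTA cells was -0.31 by TMM, -0.32 by DESeq2, -0.37 without the 10 most abundant, -0.39 with the shRNA, 0.035 after the G trend and -0.45 without star arms. For dox without rtTA it was 0.25, 0.28, 0.27, 0.26, 0.19 and 0.27. For rtTA with dox it was -0.43, -0.43, -0.50, -0.54, -0.23 and -0.55. For rtTA without dox, where it was 0.19, the settings gave 0.21, 0.25, 0.22, 0.19, 0.26 and 0.16. The 1.5-fold rule called 2 members lower for dox in rtTA cells, against 0. For rtTA with dox 1 member was lower by TMM, 1 by DESeq2 and 0 after the G trend, against 2. The other counts of called members did not move by more than 1.5 times. Under the 4 scalings 95 of 96 ratios of single members kept their direction, miR-29b for rtTA without dox being the exception, and none moved by more than 0.08. After the G trend miR-29a*, miR-29b and miR-29c* turned above 0 for dox in rtTA cells. So did miR-29a (0.08) and miR-29b (0.04) for rtTA with dox, and miR-29b (0.03) for rtTA without dox. The cause was not tested. Depth limits miR-29b* and miR-29c* most.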
